A study of Homo sapiens with 8 samples.

Results

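The genes described here are MYC and a set of nucleolar and growth genes that are classical MYC targets. Members were taken by current symbol or alias from a fixed list of 41 genes: MYC, 4 growth enzymes, 4 box C/D and 4 H/ACA small nucleolar ribonucleoprotein (snoRNP) genes, 3 RNA polymerase I subunits, 7 nucleolar phosphoproteins and regulators, 7 small subunit factors and 11 large subunit factors. Of the 22395 genes with a probe set of 1 symbol, 36 were members, and all 36 passed the filter on low signal that left 16796 genes. NME1, NOP56, DKC1 and PPAN had only probe sets shared by several symbols, GNL3 had no named probe set, and these 5 were not analysed here. Total RNA came from 4 established human prostate cancer lines, each with 1 culture transfected with siRNA against DNAPK (siDNAPK, called si7DNAPK in the titles) and 1 with non-targeting siRNA (siNTC), both taken at 48 hours. C4-2B and PC3 were kept in RPMI1640, and DU145 and VCaP in DMEM. The 8 whole-transcript Affymetrix arrays therefore form 4 pairs, 1 in each line, and the 2 arrays of a line have no replicate of their own. Values are log2 signals, and a difference of 1 is a 2-fold difference.

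MYC is a transcription factor that binds DNA as a pair with MAX, most strongly at the sequence CACGTG, known as the E-box. Many genes of ribosome biogenesis are among its targets: in the nucleolus RNA polymerase I makes the ribosomal RNA precursor, snoRNPs guide its chemical modification and early cleavage, and large sets of factors fold it with ribosomal proteins into the small and large subunits. MYC is often gained or raised in prostate cancer, and nucleolar enlargement is a long-used feature of that disease. DNA-PK is a kinase of double-strand break repair that has also been tied to transcription, and PRKDC encodes its catalytic subunit.

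The E-box was looked for in the promoters that RefSeq (GRCh38.p14) gives for the members, each 300 bases long, from 250 before to 50 after the start of the gene. An entry was found for 34 of the 41 members. CACGTG, which reads the same on both strands, stood in 18 of those 34 genes (52.9%), against 2396 of all 27305 genes with an entry (8.77%). The members were listed as classical MYC targets, so a higher share is partly built into the list. The comparison holds all genes with an entry, whether or not they had signal here. The 4 promoters printed below are those of the E-box holders with the largest mean difference between the siRNAs; they are given 5′ to 3′ on the gene's strand with CACGTG in capitals.
ODC1 (chr2:10447963-10448262, minus strand): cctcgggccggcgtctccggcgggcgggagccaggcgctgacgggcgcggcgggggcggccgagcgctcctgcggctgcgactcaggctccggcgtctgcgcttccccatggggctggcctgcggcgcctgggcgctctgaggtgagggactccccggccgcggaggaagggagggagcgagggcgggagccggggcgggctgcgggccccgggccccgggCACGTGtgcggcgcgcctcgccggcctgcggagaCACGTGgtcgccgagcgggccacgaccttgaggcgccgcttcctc
RRP9 (chr3:51941855-51942154, minus strand): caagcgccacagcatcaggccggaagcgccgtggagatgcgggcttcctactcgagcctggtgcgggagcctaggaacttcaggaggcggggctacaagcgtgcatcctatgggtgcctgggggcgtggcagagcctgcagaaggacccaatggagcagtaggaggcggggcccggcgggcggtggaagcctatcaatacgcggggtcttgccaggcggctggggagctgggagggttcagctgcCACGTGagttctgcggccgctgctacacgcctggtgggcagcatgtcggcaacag
SRM (chr1:11059969-11060268, minus strand): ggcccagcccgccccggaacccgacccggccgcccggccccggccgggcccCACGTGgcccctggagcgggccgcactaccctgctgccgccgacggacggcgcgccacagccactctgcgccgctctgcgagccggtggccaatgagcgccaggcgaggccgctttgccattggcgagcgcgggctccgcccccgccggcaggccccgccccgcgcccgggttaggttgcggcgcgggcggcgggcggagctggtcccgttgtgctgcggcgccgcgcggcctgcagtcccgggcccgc
NOP10 (chr15:34343087-34343386, minus strand): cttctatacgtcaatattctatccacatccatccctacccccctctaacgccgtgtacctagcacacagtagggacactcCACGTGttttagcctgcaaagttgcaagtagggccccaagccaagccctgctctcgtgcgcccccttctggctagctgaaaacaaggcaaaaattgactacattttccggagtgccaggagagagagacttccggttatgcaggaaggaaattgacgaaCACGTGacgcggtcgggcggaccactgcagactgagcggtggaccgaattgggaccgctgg

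Counted from the start that belongs to the printed entry, the first base of the motif lay at -29 and 6 in ODC1, at -5 in RRP9, at -199 in SRM and at -170 and -11 in NOP10. For ODC1, GAR1, IMP4, LYAR and GNL3 another entry of the gene was without the motif. ODC1, NOP10 and IMP4 were the 3 members with more than 1 match. Over all members there were 21 matches, 12 of them after the start and 6 within 100 bases before it, and their positions ran from -203 in IMP4 to 36 in NOP2. Besides the printed genes, MRTO4, WDR43, IMP4, GNL3, LYAR, GAR1, BYSL, NOP2, UTP20, UTP4, MYBBP1A, NME1, FBL and PES1 held the motif. Members also held CCGGAAG (either strand), the core of an ETS-type site, in 13 of 34 genes (38.2%, against 12.2% of all genes). A match describes the letters of the window; binding was not measured.

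PRKDC, the target of the siRNA, stood at 6.76, 8.08, 7.17 and 9.18 with siDNAPK in C4-2B, DU145, PC3 and VCaP, against 9.29, 9.17, 9.17 and 9.80 with siNTC. It was lower with siDNAPK in all 4 lines, by the least in VCaP, where the difference was -0.62. The mean difference was -1.56 ± 0.86 (SD, n = 4 lines), with an unadjusted p of 8.37e-04 and an adjusted p of 0.688 by limma with the line as a block. In that comparison 1208 of 16796 genes (7.19%) had an unadjusted p under 0.05 and none passed 0.05 after adjustment, PRKDC included. Of the markers of the lines, ERG stood at 8.57 in VCaP with siNTC, while KLK3, which VCaP is known to express, was at 10.12 in C4-2B and only 4.46 in VCaP. Of 4 epithelial markers, EPCAM lay between 8.84 and 9.66 and CDH1 between 9.07 and 10.46 on the 8 arrays, and the keratins KRT8 and KRT18 lay between 3.58 and 5.14 and between 4.37 and 5.47. Of 4 immune markers, CD68 alone had a mean past the filter level of 2.51, at 7.94 and 7.73 in DU145 and 7.06 and 7.40 in PC3 with siDNAPK and siNTC, while PTPRC lay between 1.30 and 2.02. Of 4 fibroblast markers, COL1A1 alone passed, at 3.63 to 5.06, while DCN lay between 1.38 and 1.68 and LUM reached 3.50 and 4.62 in VCaP with siDNAPK and siNTC. The 3 endothelial markers lay between 2.03 and 3.18. The part of these markers in the member values was not tested. In bulk RNA, fewer cells of a kind and less RNA per cell cannot be told apart.

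MYC itself separated the lines. With siDNAPK and siNTC it stood at 9.23 and 9.12 in VCaP, at 8.51 and 8.32 in C4-2B, at 7.05 and 7.37 in PC3 and at 6.69 and 6.76 in DU145, so both arrays of a line lay apart from those of every other line. VCaP exceeded DU145 by 2.45 (SE 0.18, adjusted p = 4.26e-05) and PC3 by 1.96 (adjusted p = 1.2e-04) in the limma fit of line levels. C4-2B exceeded DU145 by 1.70 (adjusted p = 3.14e-04) and PC3 by 1.21 (adjusted p = 0.00165), and was lower than VCaP (-0.76, adjusted p = 0.0149). DU145 and PC3, the lowest neighbours in that order, differed by -0.49, which missed the threshold (adjusted p = 0.0792). These tests rest on 2 arrays in each line, 1 of each siRNA, and measure only the spread between those arrays after a common siRNA term.

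The sign of the siRNA difference of MYC was not shared by the lines. The difference was 0.19 in C4-2B and 0.11 in VCaP, and -0.07 in DU145 and -0.33 in PC3. The mean was -0.02 ± 0.23 (SD, n = 4 lines; 95% interval -0.32 to 0.27; adjusted p = 0.969), and without PC3 it was 0.08. That interval is not a limit of detection. With 4 pairs no gene passed the adjusted threshold, PRKDC with its mean of -1.56 included.

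Levels of the other members ordered the lines in several ways. The moderated F-test over the 4 lines called 25 of the 36 members (69.4%), where 62.6% of all 16796 genes were called. It called 12 members without the arrays of C4-2B, 15 without DU145 and 15 without PC3, settings with fewer arrays. DU145 held the lowest level for 17 of 36 members, and it holds the lowest for 23.5% of all genes. C4-2B held the highest level for 13 members (26.0% of all genes), VCaP for 10 (27.4%), PC3 for 9 (23.0%) and DU145 for 4 (23.6%). The map of levels by line shows DU145 below the gene's mean for most growth enzymes and for the 3 RNA polymerase I members. DU145 was also below it for much of the large subunit list, with RRP1B and NIP7 the other way.

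**Figure D1:**
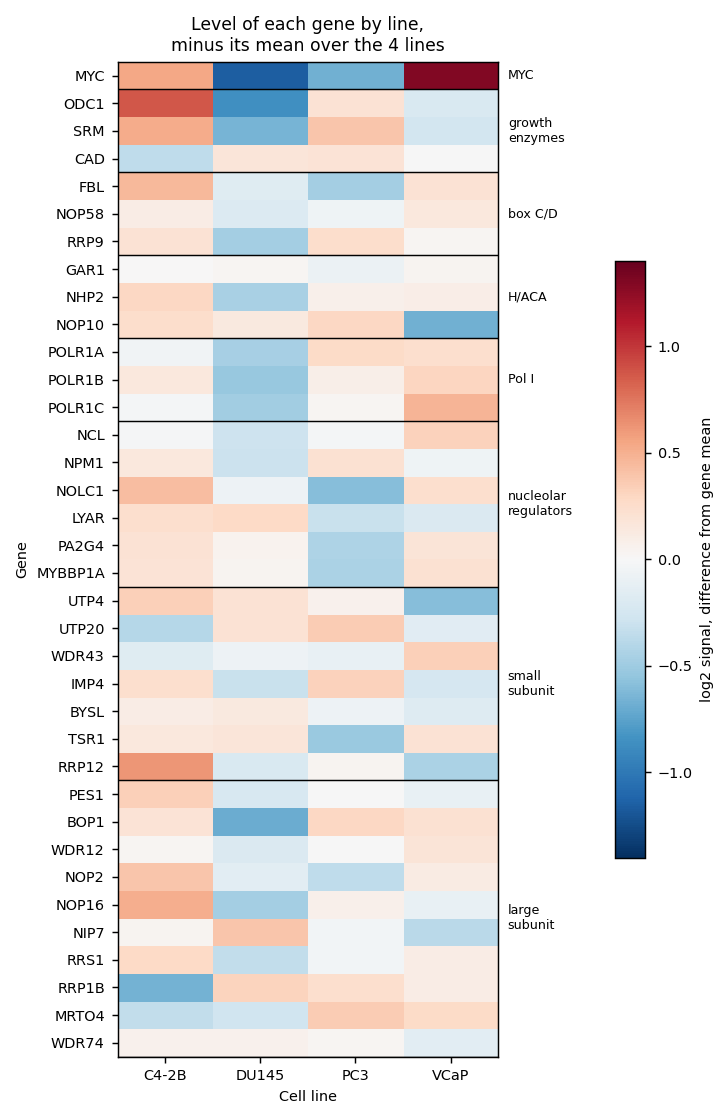
Level of the 36 measured members in the 4 lines, as the mean log2 signal of the 2 arrays of a line minus the gene's mean over the 4 lines (rows, genes by role; columns, lines; colour, log2 difference). MYC is highest in VCaP and C4-2B, and the 3 RNA polymerase I members are lowest in DU145.

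Set against DU145, C4-2B was higher for 13 members and lower for 3, with 17.0% of all genes called higher and 17.5% called lower. Higher in C4-2B were MYC, ODC1, SRM, FBL, RRP9, NHP2, POLR1B, NOLC1, RRP12, BOP1, NOP2, NOP16 and RRS1, and lower were CAD, UTP20 and RRP1B. The median over members was 0.36, beside 0.02 over all genes. Centring the arrays on the median of the named genes, which put the all-gene median of that contrast at 0.14, gave 17 higher and 1 lower (21.9% and 14.8% of all genes), and cyclic loess gave 9 higher and 3 lower (16.0% and 18.6%). VCaP exceeded DU145 for 9 members and was below it for 3 (20.2% and 21.6% of all genes), with a split of 12 to 3 after median centring (23.8% and 18.8% of all genes) and 7 to 4 after cyclic loess (20.4% and 21.2%).

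DU145 was higher than PC3 for 3 members and lower for 8, with 14.8% and 15.7% of all genes called in those directions. Without the arrays of C4-2B, 5 members in place of 11 were called between DU145 and PC3. C4-2B was higher than PC3 for 10 members and lower for 4 (17.7% and 18.5% of all genes), a split of 10 to 2 after median centring (23.4% and 15.6%). VCaP was higher than PC3 for 7 and lower for 5 (19.6% and 21.5%), a split of 9 to 2 after median centring, where all genes moved the same way (23.6% and 18.7%). C4-2B was higher than VCaP for 5 and lower for 3 (18.0% and 16.7%), the smallest number of member calls among the 6 pairs.

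**Figure D2:**
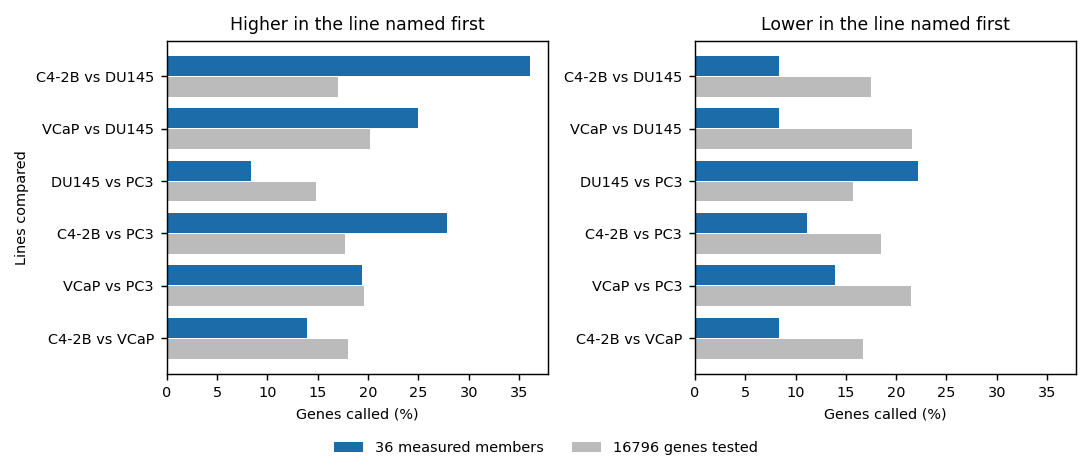
Share of genes called different between lines (x axis, percent of genes with adjusted p under 0.05 in limma; y axis, pairs of lines), for the 36 measured members (blue) and all 16796 genes tested (grey), split by direction. The longest blue bar is C4-2B over DU145, 36.1% of members beside 17.0% of all genes.

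Among the growth enzymes, ODC1, the first and rate-limiting enzyme of polyamine synthesis, had 11.04 and 11.03 in C4-2B with siDNAPK and siNTC, against 9.60 and 9.02 in DU145. C4-2B was higher by 1.73 (adjusted p = 6.1e-04), and ODC1 was also higher in C4-2B than in VCaP by 1.08 and than in PC3 by 0.66. SRM, which makes spermidine from putrescine, followed the same order of extremes, 1.18 higher in C4-2B than in DU145 and 0.78 higher than in VCaP. CAD, the enzyme that begins pyrimidine synthesis, went the other way, with C4-2B lower than DU145 (-0.52) and lower than PC3 (-0.55). PC3 was not low for these enzymes: SRM was -1.04 and ODC1 -1.07 in DU145 relative to PC3.

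The 3 member subunits of RNA polymerase I, the enzyme of ribosomal RNA synthesis, were all lowest in DU145 and all called between VCaP and DU145. The 12 other RNA polymerase I genes measured did not share this. Of them 2 were lowest in DU145 (23.5% of all genes), and VCaP exceeded DU145 for 2 and was lower for 2 (20.2% and 21.6% of all genes). POLR1A, the largest subunit, was higher in VCaP by 0.70 (adjusted p = 0.00924). POLR1B, the second largest, was higher by 0.83 (adjusted p = 0.00633). POLR1C, a subunit shared with RNA polymerase III, stood at 6.59 and 6.43 in VCaP with siDNAPK and siNTC, against 5.51 and 5.59 in DU145, and was higher by 0.96 (adjusted p = 0.00301). Among the snoRNP proteins, FBL, the methyltransferase of box C/D particles, was lowest in PC3, with C4-2B higher by 0.93 and VCaP by 0.68. NOP10, a small H/ACA protein, was lowest in VCaP (-0.81 relative to DU145 and -0.96 relative to PC3). NHP2, its partner in the same particle, was lowest in DU145, and GAR1 (F-test adjusted p = 0.917) and NOP58 (0.228) were not called.

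Several nucleolar regulators were lowest in PC3. NOLC1, a chaperone of snoRNPs, stood at 9.43 and 9.39 in C4-2B with siDNAPK and siNTC, against 8.32 and 8.44 in PC3. It was higher than in PC3 by 1.03 in C4-2B (adjusted p = 0.00219), by 0.83 in VCaP and by 0.52 in DU145. MYBBP1A, a nucleolar MYB-binding protein, was higher than in PC3 by 0.63 in C4-2B and by 0.65 in VCaP. LYAR was lower in PC3 than in C4-2B and DU145, and PA2G4 lower than in C4-2B and VCaP. TSR1, a late small subunit factor, and NOP2, a methyltransferase of large subunit RNA, had their lowest levels in PC3 as well. NCL was called only between VCaP and DU145 (0.61), and NPM1 in no pair. NPM1 and PA2G4 have near-identical processed pseudogenes, so their signal is uncertain.

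In the subunit lists, the calls pointed in several directions. BOP1, a member of the PES1-BOP1-WDR12 complex of large subunit maturation, stood between 6.04 and 6.33 on the arrays of C4-2B, PC3 and VCaP, against 5.36 and 5.24 in DU145 with siDNAPK and siNTC. C4-2B exceeded DU145 by 0.89 and VCaP did by 0.91, and DU145 relative to PC3 was -0.98. Neither of its partners was called by the F-test, with an adjusted p of 0.205 for PES1 and 0.238 for WDR12. NOP16 (0.98) and RRP12, a factor of subunit maturation and export (0.83), were higher in C4-2B than in DU145. RRP1B was lowest in C4-2B, at 6.95 with siDNAPK and 6.70 with siNTC, against 7.79 and 7.81 in DU145, a difference of -0.97. UTP4, a processome subunit, was 0.93 higher in C4-2B than in VCaP, its lowest line, and NIP7 was lowest there too (-0.77 relative to DU145). RRS1, WDR43, BYSL, WDR74 and NCL were among the 11 members that the F-test did not call.

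After the knockdown no member passed the threshold: 0 of 36 members were called, as were 0.0% of all genes. At an unadjusted p under 0.05, 4 members were higher and none lower, where 4.2% of all genes were higher and 2.99% lower. The mean difference was above 0 for 30 of 36 members (83.3%), while it was above 0 for 56.4% of all genes. The members' median was 0.12 and that of all genes 0.03. After cyclic loess the member median was 0.06 with 27 above 0, and the all-gene median was -0.0049 with 48.8% above 0. In all 4 lines the count was smaller: 8 members were above 0 in all 4 lines (11.5% of all genes were) and 0 were below 0 in all 4 (5.89% of all genes). Those 8 were ODC1, CAD, GAR1, POLR1A, PA2G4, BYSL, BOP1 and NIP7. After cyclic loess 3 members were above 0 and 2 below 0 in all 4 lines, near the all-gene shares of 7.69% and 8.51% under that scaling. The mean difference of MYC was below 0.

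**Figure D3:**
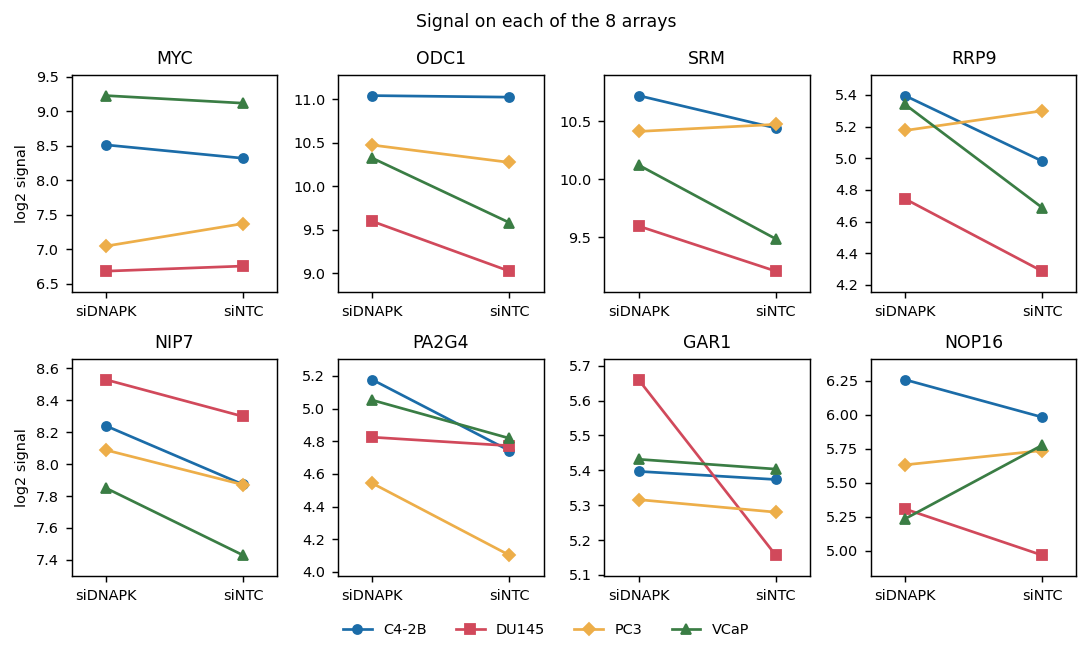
Log2 signal of 8 members on each of the 8 arrays (y axis; each panel has its own range), with siDNAPK left and siNTC right and a line joining the 2 arrays of a cell line. NIP7 and PA2G4 are higher with siDNAPK in all 4 lines, and NOP16 is higher in C4-2B and DU145 and lower in VCaP and PC3.

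ODC1 had the largest mean difference of the members. It stood at 11.04, 9.60, 10.47 and 10.32 with siDNAPK in C4-2B, DU145, PC3 and VCaP, against 11.03, 9.02, 10.27 and 9.58 with siNTC. The line differences were 0.02, 0.57, 0.20 and 0.74, so DU145 and VCaP carried most of the mean of 0.38 ± 0.33 (SD, n = 4; unadjusted p = 0.0341, adjusted p = 0.688). SRM, the next enzyme of the same pathway, stood at 10.72, 9.60, 10.41 and 10.12 with siDNAPK against 10.44, 9.21, 10.47 and 9.49 with siNTC. It was higher in 3 lines and near level in PC3, with a mean of 0.31 ± 0.29 and an adjusted p of 0.688; without VCaP the mean was 0.20. CAD was higher by 0.28, 0.07, 0.28 and 0.07, a smaller and more even set of values.

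RRP9, a U3 snoRNP protein needed for early cleavage of the ribosomal RNA precursor, had 5.40, 4.74, 5.18 and 5.34 with siDNAPK and 4.98, 4.29, 5.30 and 4.69 with siNTC. It was higher in C4-2B, DU145 and VCaP and lower in PC3, with a mean of 0.35 ± 0.33 (unadjusted p = 0.048, adjusted p = 0.688). The other box C/D proteins were closer to 0: FBL averaged 0.12 ± 0.23, with 0.42 in DU145, and NOP58 averaged 0.03 ± 0.09. GAR1 was 5.66 with siDNAPK and 5.16 with siNTC in DU145, and differed by 0.04 or less in the other lines. NOP10 was higher in C4-2B (0.31) and VCaP (0.53) and close to 0 in DU145 (0.07) and PC3 (-0.05), and NHP2 averaged 0.01 ± 0.23.

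NIP7, a factor of large subunit RNA processing, was higher by similar amounts in all 4 lines. With siDNAPK it stood at 8.24, 8.53, 8.09 and 7.85, and with siNTC at 7.87, 8.30, 7.87 and 7.43. Its differences lay between 0.22 and 0.42, with a mean of 0.31 ± 0.10 and the smallest unadjusted p of the members (0.0241, adjusted p = 0.688). PA2G4, a growth-regulated nucleolar protein, stood at 5.18, 4.82, 4.54 and 5.05 with siDNAPK, against 4.74, 4.77, 4.10 and 4.82 with siNTC. Its mean was 0.29 ± 0.19 (unadjusted p = 0.0443, adjusted p = 0.688), with 0.05 in DU145 and 0.43 or more in C4-2B and PC3. BYSL, which acts late in small subunit assembly, had 0.15, 0.25, 0.17 and 0.25, the smallest spread of any member (mean 0.21 ± 0.06, adjusted p = 0.693).

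The RNA polymerase I subunits averaged between 0.12 and 0.21, each with an adjusted p of 0.713 or more. POLR1A was above 0 in all lines, at 0.32, 0.06, 0.13 and 0.12, but its second probe set gave 0.10, -0.22, 0.37 and -0.47. POLR1B was highest in PC3 (0.39) and DU145 (0.33), and POLR1C in C4-2B (0.35). The second probe set of BOP1 gave 0.53, 0.01, -0.09 and 0.19 (mean 0.16), and so was below 0 in PC3, where the one used gave 0.02 (mean 0.12).

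In the subunit lists, VCaP pulled members apart, and the differences of all genes also spread most in VCaP (SD 0.462). PRKDC differed by the least in that line (-0.62), and its part in this spread was not tested. For the small subunit factors, 7 of 7 were above 0 in C4-2B and in DU145, 5 in PC3 and 2 in VCaP. Of all genes 57.1%, 56.9%, 55.5% and 49.7% were above 0 in C4-2B, DU145, PC3 and VCaP. The 44 other small subunit factors had 31, 38, 19 and 28 above 0 in those lines, and so were not low in VCaP. UTP4 (-0.45), IMP4 (-0.24) and RRP12 (-0.21) were below 0 in VCaP, while TSR1 was at 0.39 there. For the 10 large subunit factors, 8 were above 0 in C4-2B and 8 in DU145, but 3 in PC3 and 7 in VCaP. The 41 other large subunit factors had 32, 36, 26 and 25 above 0 in C4-2B, DU145, PC3 and VCaP. NOP16 stood at 6.26, 5.31, 5.63 and 5.23 with siDNAPK, against 5.98, 4.97, 5.74 and 5.78 with siNTC, and so had 0.28 and 0.34 in C4-2B and DU145 and -0.54 in VCaP. RRS1, which helps load the 5S particle, was at -0.57 in VCaP and had the lowest mean of the members (-0.18 ± 0.28, adjusted p = 0.757). PES1 was the reverse, with 0.61 in VCaP and -0.21 in C4-2B. MRTO4 and WDR74 were at 0.47 and 0.48 in VCaP.

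**Figure D4:**
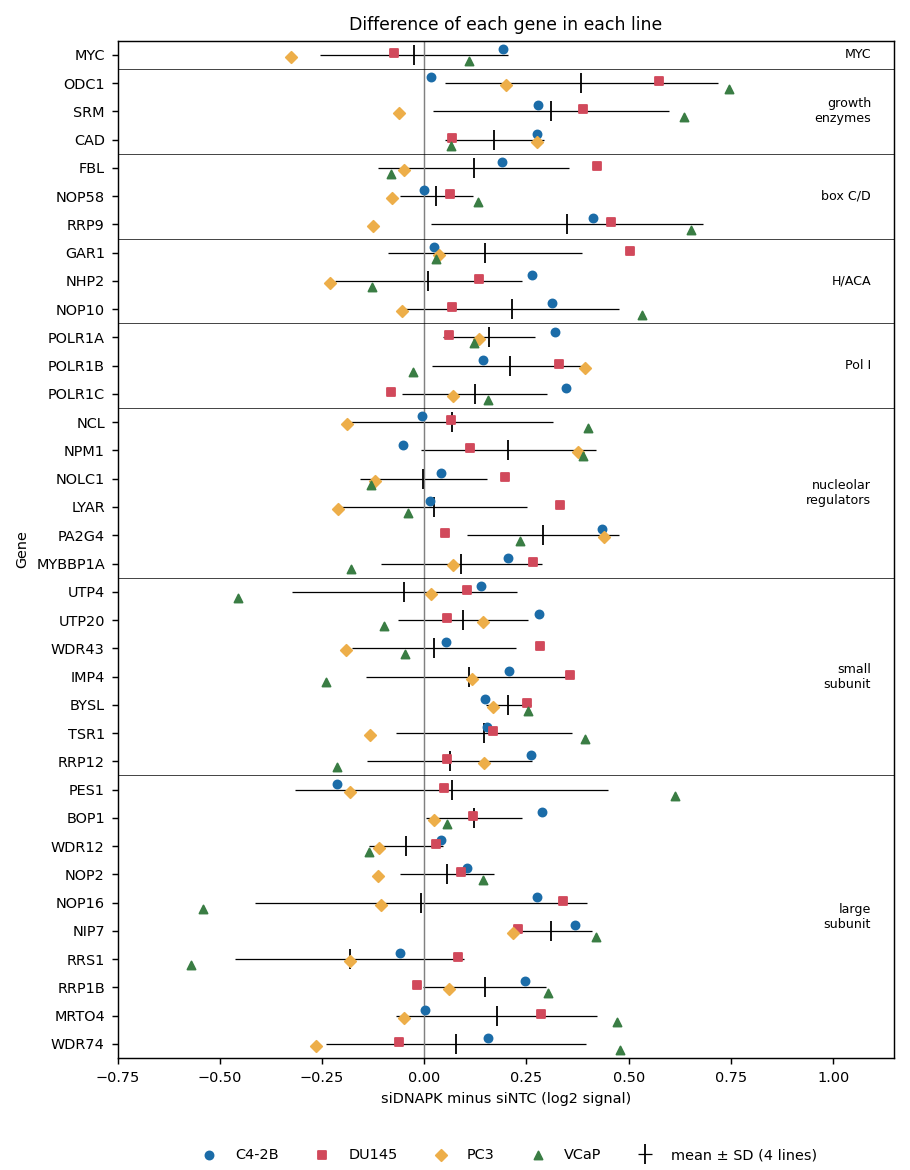
Difference between siDNAPK and siNTC of each of the 36 members (y axis, grouped by role) on the log2 scale (x axis), with 1 point for each line and the mean ± SD over 4 lines in black. Points of VCaP lie farthest from 0 on both sides, from -0.57 for RRS1 to 0.74 for ODC1, and all genes also spread most in VCaP.

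Line by line, more members were above 0 in C4-2B and DU145 than in VCaP and PC3, but this order depended on the scaling. After cyclic loess DU145 and VCaP each had 22 above 0 (47.7% and 49.8% of all genes). C4-2B then had 27 and PC3 15 (49.2% and 50.9%). In C4-2B 31 of 36 were above 0 (57.1% of all genes), with a median of 0.17 beside 0.04 over all genes. PA2G4 (0.43), RRP9 (0.41) and NIP7 (0.37) were the highest there, and PES1 (-0.21), RRS1 (-0.06) and NPM1 (-0.05) the lowest. In DU145 32 of 36 were above 0 (56.9% of all genes), with a median of 0.12 beside 0.05. Cyclic loess left 22 above 0 and a median of 0.04 in DU145, beside 47.7% and -0.02 over all genes. ODC1 (0.57), GAR1 (0.50) and RRP9 (0.46) led in DU145, with POLR1C (-0.08), MYC (-0.07) and WDR74 (-0.06) at the other end.

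In PC3 17 of 36 members were above 0 (55.5% of all genes), with a median of -0.05 beside 0.04. PA2G4 (0.44), POLR1B (0.39) and NPM1 (0.38) were highest in PC3, while MYC (-0.33), WDR74 (-0.26) and NHP2 (-0.23) were lowest. In VCaP 22 were above 0 (49.7% of all genes), with a median of 0.12 beside -0.0032. ODC1 (0.74), RRP9 (0.65) and SRM (0.64) led in VCaP, and RRS1 (-0.57), NOP16 (-0.54) and UTP4 (-0.45) were lowest. Past 0.5, ODC1 and GAR1 were higher in DU145 (5.89% of all genes), and ODC1, SRM, RRP9, NOP10 and PES1 higher and NOP16 and RRS1 lower in VCaP (10.5% and 12.8%). None was past 0.5 in C4-2B (4.51% of all genes higher and 3.76% lower) or PC3 (6.08% and 5.22%), and none lower in DU145 (5.55%). No member differed by more than 1 in any line, a size passed by 3.7% of all genes in VCaP, 1.12% in DU145, 1.07% in PC3 and 0.583% in C4-2B. Among members these differences had an SD of 0.335 in VCaP beside 0.462 over all genes, 0.191 beside 0.327 in PC3, 0.169 beside 0.334 in DU145 and 0.150 beside 0.288 in C4-2B. With 1 array of each siRNA in a line, these values have no error of their own.

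Proliferation markers had different signs in the lines. All 15 proliferation markers, MKI67 and PCNA among them, were above 0 in DU145 (median 0.40) and none was in PC3 (median -0.25), with 11 above 0 in C4-2B (median 0.07) and 7 in VCaP (median -0.10). The summed linear signal of the 15 lay between 4663 and 8078 with siDNAPK and between 5744 and 7314 with siNTC. Their part in the member values was not tested.

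The differences in response between lines did not pass the threshold either. For C4-2B and VCaP against DU145 and PC3, the limma contrast called 0 of 36 members and 0.0% of all genes, and at an unadjusted p under 0.05 it held 0 members beside 3.7% of all genes. For each line against the mean of the other 3, 0 members were called, as were 0.0% of all genes. At an unadjusted p under 0.05, 3 members stood out in VCaP (14.6% of all genes did), with UTP4 and NOP16 lower and PES1 higher, and 0 in each of C4-2B, DU145 and PC3 (1.88%, 4.62% and 3.63% of all genes).

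Members were also read by whether their promoter held CACGTG. In DU145 the median difference was 0.28 for the 16 measured members with the motif, 0.07 for the 13 without it in the window and 0.06 for the 7 with no promoter entry. The order was not the same elsewhere: in C4-2B those medians were 0.14, 0.26 and 0.19, in PC3 -0.05, 0.07 and -0.08, and in VCaP 0.09, 0.16 and 0.06. For the mean over the 4 lines the medians were 0.12, 0.15 and 0.03. ODC1, GAR1, RRP9, FBL and SRM, all with the motif, were the 5 highest members in DU145. They were picked in that line after its values were seen. Cyclic loess lowered the median of all members in DU145 from 0.12 to 0.04, and the motif classes were not compared under it. A link between the motif and the differences was not tested.

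The rest of the pathway was read from wider lists, and in none of them did a gene pass the adjusted threshold. Of 12 other RNA polymerase I genes, 10 had a mean above 0 (median 0.09, beside 0.03 and 56.4% above 0 over all genes). In that list 2 were higher at an unadjusted p under 0.05 (4.2% of all genes were). POLR1G, a polymerase I subunit, stood at 5.46, 5.53, 5.88 and 6.24 with siDNAPK, against 5.02, 5.07, 5.33 and 5.85 with siNTC. It was higher by 0.40 or more in each line, a mean of 0.46 ± 0.06 (unadjusted p = 0.00302, adjusted p = 0.688). TCOF1, which promotes ribosomal RNA transcription, averaged 0.38 ± 0.34. RRN3, the initiation factor, averaged -0.13 ± 0.73 with -1.10 in VCaP, and POLR1H averaged -0.02 ± 0.30.

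Of 44 other small subunit factors, 34 had a mean above 0 (median 0.08), with BMS1 (0.43 ± 0.35) and UTP3 (0.34 ± 0.41) highest and AATF (-0.20 ± 0.19) and DDX47 (-0.14 ± 0.09) lowest. Of 41 other large subunit factors, 31 were above 0 (median 0.13) and 16 were above 0 in all 4 lines (11.5% of all genes were). The wider lists were not recounted under cyclic loess, which left 3 members and 7.69% of all genes above 0 in all 4 lines. SURF6, a nucleolar matrix protein, was higher by 0.33, 0.32, 0.74 and 0.33 (mean 0.43 ± 0.21, unadjusted p = 0.00938, adjusted p = 0.688), and NLE1 averaged 0.30 ± 0.18. RSL24D1 (-0.25 ± 0.30) and NOP53 (-0.17 ± 0.41) were the lowest of that list. Of 11 other snoRNP genes 10 were above 0 (median 0.14), with SNU13 at 0.27 ± 0.32 and RPAP3 at 0.22 ± 0.12, RUVBL1 at 0.00 ± 0.21 and NOPCHAP1 at -0.32 ± 0.53. The unadjusted threshold was passed by 2 small subunit factors, 2 large subunit factors and no snoRNP gene, each of them higher. Over all genes 4.2% were higher and 2.99% lower at that threshold, and the direction of these small counts was not tested.

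**Figure D5:**
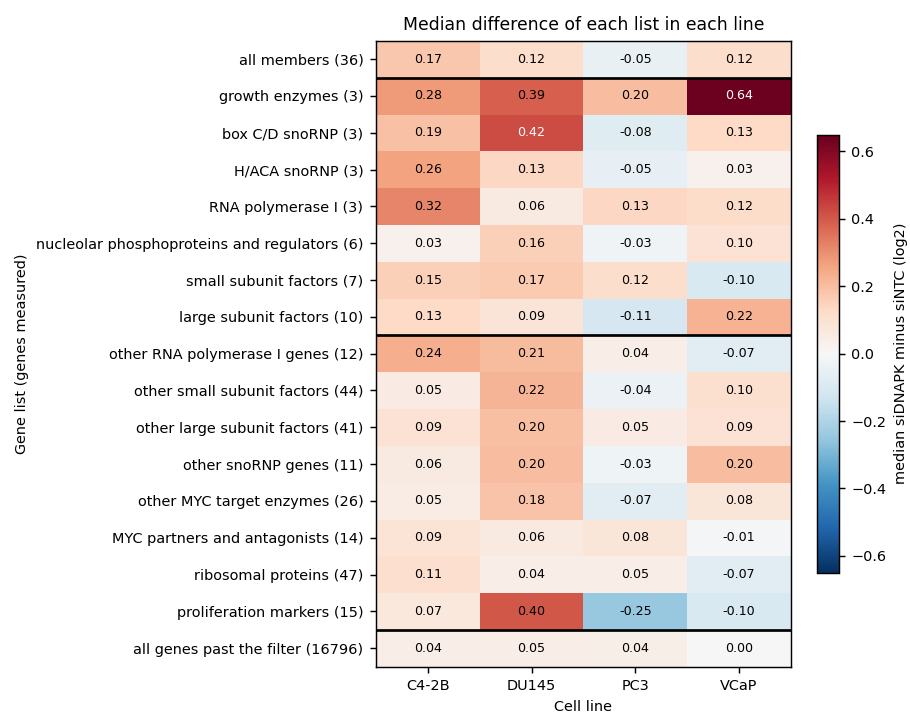
Median difference between siDNAPK and siNTC on the log2 scale (colour and printed value) of each gene list (rows, number of genes measured in brackets) in each line (columns). The growth enzymes reach 0.64 in VCaP, all 3 wider assembly lists and the members are above all genes in DU145, and the proliferation markers are at 0.40 in DU145 and -0.25 in PC3.

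The partners and antagonists of MYC were near 0: 10 of 14 had a mean above 0, with a median of 0.05. MAX averaged 0.12, MNT -0.04 and MXI1 -0.03. MXD1, which competes with MYC for MAX, differed by -0.20, -0.15, -0.18 and -0.23 in the 4 lines, below 0 in each (mean -0.19 ± 0.03, adjusted p = 0.703). ZBTB17 averaged 0.23 ± 0.21 and MLXIPL -0.07 ± 0.29. The paralogues MYCN and MYCL averaged 0.32 ± 0.40 and 0.14, with MYCN at 3.33 to 4.11 with siDNAPK and 3.33 to 3.51 with siNTC. MXD4 was not analysed here. Other MYC target enzymes had a median of 0.11, with 19 of 26 above 0 and 1 higher at an unadjusted p under 0.05 (4.2% of all genes). LDHA, of lactate production, was at 1.64 in VCaP and 0.16 or less in the other lines, IMPDH1 averaged 0.30 ± 0.14, and SHMT2 (-0.33 ± 0.59) and MTHFD1L (-0.23 ± 0.39) were lowest.

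Ribosomal protein genes stood close to all genes. Of 47 measured past the filter, of 78 listed, 28 had a mean above 0 (median 0.03, as over all genes). None passed the unadjusted threshold in either direction (4.2% of all genes higher and 2.99% lower). RPL29 (0.27 ± 0.25) and RPS4X (0.25 ± 0.34) were highest, and RPS19 (-0.17 ± 0.25) and RPS16 (-0.14 ± 0.23) lowest. By level, 32 of 47 were highest in VCaP (27.4% of all genes) and 26 lowest in PC3 (25.4%), and C4-2B was higher than VCaP for 1 and lower for 15 (18.0% and 16.7% of all genes). Of the 26 other MYC targets, C4-2B exceeded DU145 for 10 and was lower for none (17.0% and 17.5% of all genes), and exceeded PC3 for 10 and was lower for none (17.7% and 18.5%). Ribosomal protein genes have many near-identical pseudogenes, so those values are uncertain.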

How the data were processed

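RNA from 4 prostate cancer cell lines, 400 ng for each of 8 arrays, was read on whole-transcript Affymetrix arrays, per the labels' protocols. The deposited values are log2 signals for each probe set. Oligo and RMA, without versions, are listed in the submitters' processing notes; RMA corrects background, makes the arrays' distributions alike and summarises probes, so shifts shared by most transcripts are removed. Array medians lay between 2.94 and 2.99, and the number of arrays limits the precision. Scan batches were not examined here.

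Of 53617 probe sets, 23871 had 1 gene symbol, 1842 several and 27904 none. Symbols were updated by Entrez identifier for 22569, from the RefSeq gene table (GRCh38.p14). Where a gene had over 1 probe set (632 genes), that with the highest mean was used. Genes had to exceed the 25th percentile of the gene means (2.51). Fits used limma 3.58.1 under R 4.3.3, lmFit and eBayes, 2-sided, with Benjamini-Hochberg adjustment over 16796 genes and a threshold of 0.05: the siRNA difference with the line as a block, the levels of lines with a siRNA term, and contrasts of the 4 within-line differences. The same line pairs the arrays: over genes, arrays of a line correlated at 0.974 or more and those of different lines at 0.892 or less. The p-values measure the spread between these samples, which may be technical. Alternatives were no filter, median centring, cyclic loess, the mean of a gene's probe sets, a trended prior, no replicate block, and leaving out each line. The fits were tested on simulated data.

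The members and lists were chosen with earlier results of these data known. Named genes are all members, PRKDC, the MYC partners, the 2 highest and 2 lowest mean differences of each pathway list, and the 3 highest and lowest members in each line; markers and the 5 highest members in DU145 were named besides.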

Additional observations from a re-analysis of the deposited data

Results flagged for a closer look

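In 7 of 108 groups of 4 values, 1 line stood apart from the other 3 by Dixon's criterion at the 95% level, where chance alone gives about 1 in 20. The siRNA difference of GAR1 was 0.50 in DU145 and between 0.0233 and 0.0358 in the other lines. Among siDNAPK arrays, POLR1B was 4.96 in DU145 (others 5.54 to 5.61), BOP1 was 5.36 in DU145 (others 6.24 to 6.33) and RRP1B was 6.95 in C4-2B (others 7.74 to 7.79). Among siNTC arrays, NHP2 was 6.80 in DU145 (others 7.48 to 7.51), PA2G4 was 4.10 in PC3 (others 4.74 to 4.82) and TSR1 was 8.11 in PC3 (others 8.57 to 8.64).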

How the results depend on the processing

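No alternative called a member in the siRNA comparison or in the contrasts of response, and without the replicate block the count was also 0. Of 73 member calls between lines, 65 held under cyclic loess, 66 under median centring, 65 with no filter, and all 73 with a trended prior and with the mean of probe sets. Of the calls that could be tested with 1 line left out, 22 of 35 held without C4-2B, 27 of 34 without DU145, 29 of 36 without PC3 and 41 of 41 without VCaP. Leaving out 1 line gave 12 to 24 members called by the F-test and 5 to 15 called between DU145 and PC3. Mean siRNA differences of the genes below changed sign, most of them near 0 but RRN3 (-0.13) and NOP53 (-0.17) farther from it; the cause was not tested. Under cyclic loess NHP2 was -0.038, LYAR -0.027, WDR43 -0.019 and RUVBL1 -0.046. With the mean of probe sets POLR1H was 0.050. Without C4-2B NHP2 was -0.074, RRP12 -0.0034 and RUVBL1 -0.050. Without DU145 NHP2 was -0.031, LYAR -0.079, WDR43 -0.062 and RUVBL1 -0.060. Without PC3 MYC was 0.076, NOLC1 0.037, NOP16 0.025, MLXIPL 0.067 and POLR1H 0.0074. Without VCaP NOP58 was -0.0052, NCL -0.044, NOLC1 0.040, UTP4 0.087, PES1 -0.12, NOP16 0.17, WDR74 -0.056, POLR1H 0.105, RRN3 0.19 and NOP53 0.0085.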

Other observations

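The order of the members by difference was not shared between lines. Across the 36 members, the Pearson correlation of the differences was 0.31 between C4-2B and PC3 and between -0.07 and 0.11 for the other 5 pairs of lines; over all 16796 genes it was 0.14 for C4-2B and PC3 and 0.01 to 0.10 for the others. Genes are not independent replicates, and these values are a description.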
